A study of Mus musculus with 6 samples.

Results

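The Hedgehog pathway was followed through 9 genes in cultured mouse neural stem cells with and without Smchd1. The 9 genes are Ptch1, Hhip, Boc, Cdon, Smo, Sufu, Gli1, Gli2 and Gli3, taken by Entrez ID from the 27179 gene IDs counted in each library. They were chosen by name for their place in the pathway, with earlier results of these data known, and all 9 were found. There were 3 libraries from cells homozygous for MommeD1, an allele of Smchd1 labelled as null (Smchd1 null replicates 1 to 3). They were set against 3 libraries from Smchd1 wild-type cells (wild type replicates 1 to 3). All cells came from the brains of male E14.5 mouse embryos on a C57BL/6 x FVB/N background, and all were grown on laminin in medium with EGF and bFGF, 20 ng/ml of each. Whether replicates were separate embryos or derivations is not said in the labels, so the p-values cover the spread among these libraries only, and that spread may be technical. MommeD1 is a germline allele carried by every cell, so no Cre or driver limits it to a cell type.

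Hedgehog ligands are secreted proteins that bind the receptor Patched. Unbound Patched keeps the membrane protein Smoothened out of action. When ligand binds, Smoothened acts in the primary cilium, SUFU releases the GLI transcription factors, and GLI proteins turn on target genes, among them Gli1, Ptch1 and Hhip themselves. In the embryonic brain the pathway patterns ventral cell types and sustains the division of progenitors, and GLI3, cut to a repressor when ligand is absent, restrains it dorsally. Smchd1 encodes a chromatin protein with a hinge domain like that of SMC proteins. It is required to silence genes of the inactive X chromosome and some clustered autosomal genes.

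Libraries held 18608881 to 23253367 counts. Wild type replicate 3 stood apart. The unnamed Entrez record 100861531 made up 44.6% of it, while in the null libraries and the other wild type libraries this record made up 2.11% to 5.90%. Its effective depth after TMM scaling (a scaling that equalises the bulk of genes between libraries) was 10078211 counts, with 21284509 to 25800656 elsewhere. It lay outside the range of the other 5 libraries for 43.8% of all 14207 tested genes. Any library is the highest or lowest for a sizeable share of genes, and that share was not taken for the others, so this value alone does not set it apart. Wild type replicates 1 and 2 carry 3-digit sample-name numbers, whereas wild type replicate 3 and the null libraries carry 11 to 14. The labels do not state what these numbers stand for. Smchd1 itself matched the labels, at 30.3, 31.1 and 27.9 CPM (counts per M counts of TMM-scaled depth) in the null libraries, against 270.7, 259.6 and 231.8 CPM in wild type. The neural stem cell label was borne out by its markers. Of 12 such genes all passed the filter on low counts, with a summed level of 6687 to 6917 CPM in null and 6738 to 7093 CPM in wild type, and Vim, an intermediate filament gene, led at 2021 to 2159 CPM in null and 2004 to 2360 CPM in wild type.

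None of the Hedgehog genes that could be tested was called changed in Smchd1 null cells when all 6 libraries were used. The edgeR quasi-likelihood test called 0 of the 8 that passed the filter on low counts, at an adjusted p threshold of 0.05, where 0.577% of all 14207 tested genes were called. Of the 8, only Gli3 had an unadjusted p under 0.05. The limma-voom test called 0 members (0.894% of all genes). DESeq2 called Gli3 lower in null, where it called 1.42% of all genes lower. With sample quality weights, which give libraries unequal weight, limma-voom called 4 members lower and 1 higher, against 17.4% and 19.0% of all genes. Without wild type replicate 3 edgeR called 4 of 9 members lower and 1 higher in null, where it called 19.4% of all genes tested in that fit lower and 19.7% higher. With the range of sample-name numbers as a term, a fit in which wild type replicate 3 is the only wild type library of the range 11 to 14, edgeR called 0 of the 8 members, where 1.31% of all genes were called. The 3-digit range held wild type libraries only, so no genotype value can be had within it.

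**Figure D1:**
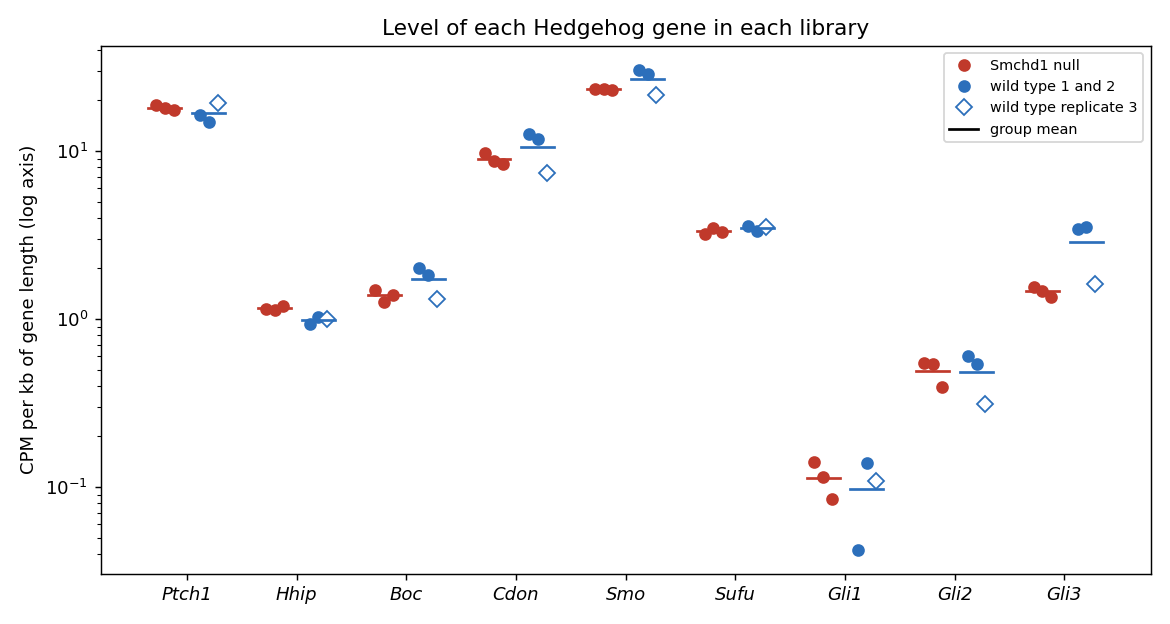
Level of each of the 9 genes in each library, as CPM per kb of gene length on a log axis, with Smchd1 null in red left of wild type in blue and lines at group means (n = 3 libraries each). Gli3 showed the widest gap between genotypes, at 1.46 in null and 2.87 in wild type on average, and the open diamond of wild type replicate 3 sat at 1.63, next to the null libraries.

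Per kb of gene length, the members spanned a wide range of levels and kept the same order in both genotypes. Smo stood highest, at 23.3 ± 0.124 CPM per kb in null and 26.8 ± 4.77 CPM per kb in wild type (mean ± SD, n = 3, as in all such values here). Ptch1, Cdon, Sufu, Gli3, Boc, Hhip and Gli2 followed in that order, and Gli1 stood lowest, at 0.114 ± 0.028 CPM per kb in null and 0.097 ± 0.050 CPM per kb in wild type. In the null libraries every neighbour in that order was separated by its range except Gli3 and Boc. In wild type Sufu overlapped Gli3, and Gli3 overlapped Boc.

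To show the sequence context of the member with the largest difference and of the 2 pathway targets abundant enough to be tested, the 250 bases before the annotated start of Gli3, Ptch1 and Hhip are given 5′ to 3′ from RefSeq (build GRCm38.p6), with CG dinucleotides in capitals.
Gli3, chr13:15463473-15463722, plus strand: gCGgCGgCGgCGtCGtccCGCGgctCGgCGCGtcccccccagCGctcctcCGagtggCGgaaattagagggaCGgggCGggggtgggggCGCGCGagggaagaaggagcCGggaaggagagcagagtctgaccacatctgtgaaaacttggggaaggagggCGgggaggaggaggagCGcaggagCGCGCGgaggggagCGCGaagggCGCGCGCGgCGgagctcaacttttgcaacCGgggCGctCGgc
Ptch1, chr13:63565736-63565985, minus strand: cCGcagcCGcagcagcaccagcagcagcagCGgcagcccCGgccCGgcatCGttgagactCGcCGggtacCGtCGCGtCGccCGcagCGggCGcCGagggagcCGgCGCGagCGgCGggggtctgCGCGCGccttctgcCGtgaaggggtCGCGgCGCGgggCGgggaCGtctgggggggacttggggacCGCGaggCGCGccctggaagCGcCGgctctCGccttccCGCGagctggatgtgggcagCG
Hhip, chr8:80058009-80058258, minus strand: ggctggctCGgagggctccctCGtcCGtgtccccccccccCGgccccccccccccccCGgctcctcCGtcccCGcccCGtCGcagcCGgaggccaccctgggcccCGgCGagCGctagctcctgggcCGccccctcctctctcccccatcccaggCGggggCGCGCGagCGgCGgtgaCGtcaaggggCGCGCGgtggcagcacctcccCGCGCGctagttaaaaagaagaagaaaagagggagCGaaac
The starts listed for Ptch1 and Hhip lie inside the spans of the genes. These windows are rich in CG. The Gli3 window held 34 CG dinucleotides, that of Ptch1 41 and that of Hhip 28, against a median of 6 over all 32851 windows of this length, and 3.53%, 1.09% and 7.61% of all windows held at least as many. The motif GACCACCCA, the sequence known to be bound by GLI proteins, was searched on both strands and was in none of the 7 member windows available (Gli2, Gli3, Ptch1, Smo, Sufu, Hhip and Cdon), as in all but 0.225% of windows. Gli1 and Boc had no entry.

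Ptch1, the Hedgehog receptor and itself a GLI target (Entrez 19206, chromosome 13, 63508328 to 63573460, mm10), was the more abundant of the 2 ligand-binding inhibitors. It had 80.6, 77.9 and 75.2 CPM in null replicates 1 to 3, against 70.3, 63.7 and 83.6 CPM in wild type replicates 1 to 3. The null libraries lay above wild type replicates 1 and 2 and below wild type replicate 3, so the groups overlapped. The log2 fold change (null over wild type) was 0.11 ± 0.10 (SE; edgeR adjusted p = 0.542). It was 0.21 ± 0.06 without wild type replicate 3 (edgeR adjusted p = 0.0106), so its direction held and it was called. Limma-voom with sample quality weights, which kept that library, also called it (0.19, limma-voom adjusted p = 0.0330). Its direction turned with the sample-name term, to -0.10 ± 0.08.

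Hhip, a membrane protein that binds and sequesters Hedgehog ligands and is likewise a GLI target (Entrez 15245, chromosome 8, 79965850 to 80058060), was one of the 2 tested members whose groups did not overlap. Of all tested genes, 11.4% were likewise higher in every null library than in any wild type library. Hhip had 10.5, 10.3 and 10.9 CPM in null, against 8.53, 9.30 and 9.13 CPM in wild type. Here wild type replicate 3 lay between the other wild type libraries. The difference was small, with a log2 fold change of 0.23 ± 0.10 (edgeR adjusted p = 0.276), and it was as large without wild type replicate 3 (0.24 ± 0.11, edgeR adjusted p = 0.083) and with the sample-name term (0.21 ± 0.17). In none of the 20 alternative fits did Hhip pass the threshold, and its adjusted p ran from 0.0632 to 0.660 over them.

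Boc and Cdon encode related immunoglobulin-family co-receptors that help present ligand to Patched, and for both the wild type libraries overlapped the null ones. Cdon (Entrez 57810, chromosome 9, 35421528 to 35507652) had 69.8, 62.6 and 60.8 CPM in null, against 90.7, 85.4 and 53.5 CPM in wild type. Boc (Entrez 117606, chromosome 16, 44485045 to 44558870) had 6.63, 5.62 and 6.20 CPM in null, against 8.95, 8.14 and 5.85 CPM in wild type. For both genes wild type replicates 1 and 2 lay above every null library, while wild type replicate 3 lay below all null libraries for Cdon and among them for Boc. Log2 fold changes were -0.26 ± 0.18 for Cdon (edgeR adjusted p = 0.447) and -0.34 ± 0.17 for Boc (edgeR adjusted p = 0.308). Without wild type replicate 3 both were called lower in null, Cdon at -0.46 ± 0.06 (edgeR adjusted p = 3.79e-05) and Boc at -0.48 ± 0.12 (edgeR adjusted p = 0.00562). With the sample-name term both turned above 0, to 0.27 ± 0.10 for Cdon and 0.07 ± 0.21 for Boc, without a call. The ratio of Cdon to Boc within a library, per length, was nearly constant, at 6.47, 6.83 and 6.02 in null and 6.22, 6.44 and 5.61 in wild type.

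Smo, the transducer that Patched holds in check (Entrez 319757, chromosome 6, 29735497 to 29761366), had 23.5, 23.3 and 23.2 CPM per kb in null, against 30.4, 28.7 and 21.4 CPM per kb in wild type. The null libraries were nearly equal, below wild type replicates 1 and 2 and above wild type replicate 3. The log2 fold change was -0.21 ± 0.12 (edgeR adjusted p = 0.357). It stood at -0.34 ± 0.05 without wild type replicate 3, where it was called (edgeR adjusted p = 6.26e-05), and at 0.12 ± 0.07 with the sample-name term. The ratio of Ptch1 to Smo per length was 0.798, 0.778 and 0.752 in null, against 0.537, 0.516 and 0.907 in wild type. The 3 null libraries and wild type replicate 3, all named 11 to 14, had the 4 higher ratios.

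Sufu, which binds GLI proteins and keeps them inactive (Entrez 24069, chromosome 19, 46396896 to 46488804), was the steadiest member. It had 7.56, 8.20 and 7.80 CPM in null, against 8.49, 7.85 and 8.34 CPM in wild type. The groups overlapped, wild type replicate 3 lay within the range of the other libraries, and the log2 fold change was -0.06 ± 0.11 (edgeR adjusted p = 0.755). It was -0.06 ± 0.11 without wild type replicate 3 and -0.09 ± 0.18 with the sample-name term.

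Gli3, the main GLI repressor (Entrez 14634, chromosome 13, 15463723 to 15730026), had the largest difference among the 8 tested members. It had 13.1, 12.4 and 11.4 CPM in null, against 29.0, 29.7 and 13.7 CPM in wild type. Every null library lay below every wild type library, as for 10.6% of all tested genes, but wild type replicate 3 was far closer to the null libraries than to the other wild type ones. The log2 fold change was -1.001 ± 0.265 (edgeR adjusted p = 0.165). DESeq2 gave a like size and called it (-0.998, adjusted p = 0.00765). Without wild type replicate 3 Gli3 was called lower, at -1.26 ± 0.08 (edgeR adjusted p = 1.28e-08), and it stood at -0.15 ± 0.14 with the sample-name term (edgeR adjusted p = 0.701). In GENCODE M21, 188 of the 9589 exonic bases of Gli3 are shared with Gm6556 on the other strand, and the library kit does not mark strand. The counted length was 8427 bases, so the shared bases may not all have been counted.

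Gli2, the main GLI activator in early Hedgehog responses (Entrez 14633, chromosome 1, 118834061 to 119054405), was present at a lower level, with 59 to 78 counts per null library and 21 to 104 counts per wild type library. It had 3.67, 3.61 and 2.63 CPM in null, against 4.03, 3.62 and 2.08 CPM in wild type. The groups overlapped throughout, with a log2 fold change of -0.03 ± 0.25 (edgeR adjusted p = 0.952), and the SE leaves room for a change in either direction. Gli3 and Gli2 differed in how they stood to each other. Per length, Gli3 exceeded Gli2 2.85, 2.74 and 3.45 times in null, against 5.73, 6.53 and 5.23 times in wild type, so that wild type replicate 3 fell with its own group here. It had only 21 Gli2 counts, and counting error alone (exact binomial, 95%) allowed a ratio of 3.29 to 8.72 there, which reached down into the range of the null libraries. The ratio of Gli3 to Sufu did not share this pattern, at 0.485, 0.424 and 0.410 in null, against 0.957, 1.06 and 0.460 in wild type. These ratios were picked with the members' values known and carry no test.

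**Figure D2:**
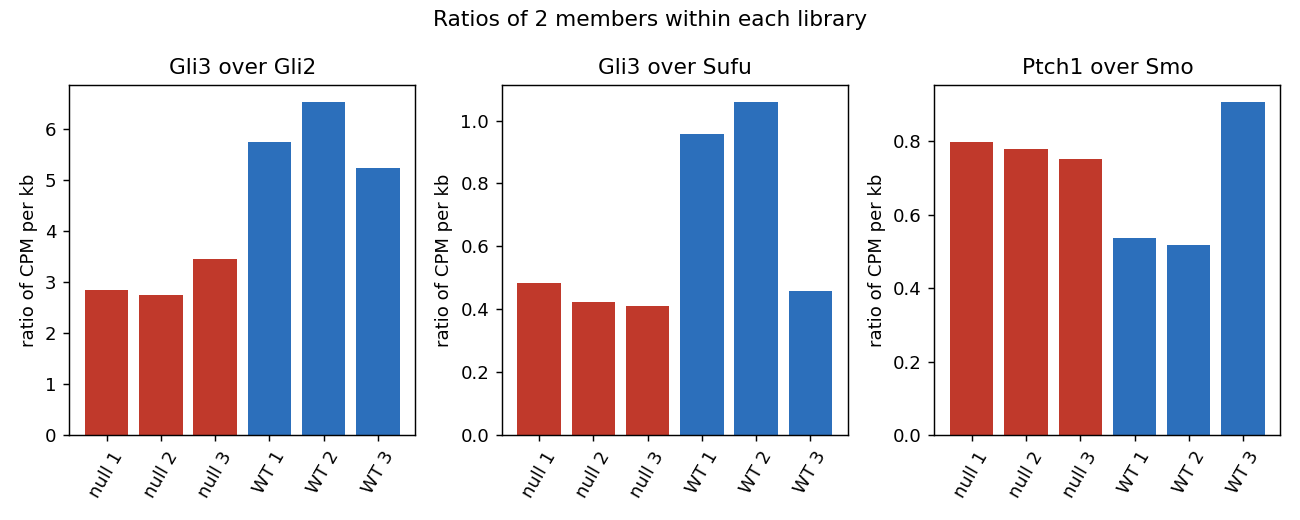
Ratios of 2 members within each library, from CPM per kb, with the 3 Smchd1 null libraries in red left of the 3 wild type (WT) libraries in blue and bars starting at 0. Gli3 over Gli2 lay at 2.74 to 3.45 in null and 5.23 to 6.53 in wild type, whereas for Gli3 over Sufu and Ptch1 over Smo wild type replicate 3 stood with or beyond the null libraries.

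Gli1, whose transcription is the usual readout of active Hedgehog signalling (Entrez 14632, chromosome 10, 127329882 to 127341579), was barely detected and did not pass the filter on low counts. It had 11, 9 and 7 counts in null replicates 1 to 3, against 4, 12 and 4 counts in wild type replicates 1 to 3. The groups overlapped. With 27 counts over the null libraries and 20 over wild type, the ratio of pooled counts scaled by depth was 1.23, with 0.665 to 2.32 as the exact binomial 95% interval for counting error. In a fit with no filter the log2 fold change was 0.28 ± 0.48 (edgeR adjusted p = 0.787). A difference inside that interval was not detectable at this depth. In GENCODE M21 its exons share 265 bases with Gm47200 and 62 with Arhgap9, both on the other strand, out of 4995. The counted length was 3662 bases, so the shared bases may not all have been counted.

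**Figure D3:**
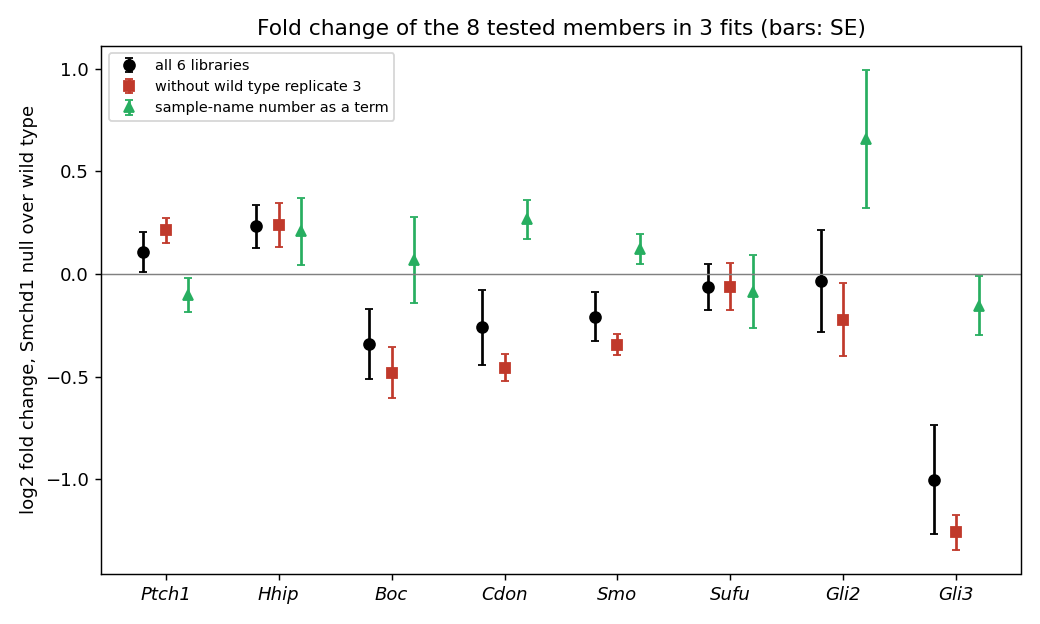
Log2 fold change of the 8 tested members (Smchd1 null over wild type, bars ± SE) with all 6 libraries, without wild type replicate 3, and with the sample-name number as a term. Hhip and Sufu stood at nearly the same value in the 3 fits, at 0.23, 0.24 and 0.21 and at -0.06, -0.06 and -0.09, while Gli3 went between -1.26 and -0.15 and Cdon between -0.46 and 0.27.

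Gli3 had the widest range over the libraries of the tested members. It was compared with 12179 genes of average log2 CPM of at least 1, by the root mean square difference of centred log2 CPM over the 6 libraries. The 3 genes nearest to Gli3 were Tead2, Kank2 and 1700025G04Rik, at 0.06, 0.10 and 0.11. Tead2, a TEAD transcription factor gene, had 65.7, 69.6 and 60.6 CPM in null, against 154.3, 156.7 and 67.8 CPM in wild type. The 3 genes were chosen for this likeness over the same libraries. Lineage markers also differed between libraries of the same genotype. The 10 oligodendrocyte lineage genes summed to 1435 to 1516 CPM in null, against 1218, 1122 and 1608 CPM in wild type replicates 1 to 3, led by Olig1. Pdgfra, a receptor of oligodendrocyte precursors singled out after its values were seen, had 112.6, 128.2 and 137.5 CPM in null, against 17.1, 18.3 and 167.4 CPM in wild type. The 6 astrocyte genes summed to 172.7 to 179.4 CPM in null, against 144.4, 175.5 and 219.9 CPM in wild type. Gja1 had the highest mean over the 6 libraries, though Aldh1l1 exceeded it in the null libraries and in wild type replicate 3. Mature oligodendrocyte genes were near 0, with Mag at no more than 0.10 CPM and Mog at no more than 0.72 CPM in any library. Their part in the differences of Gli3, Cdon, Boc, Smo and Ptch1 was not tested. In bulk RNA, fewer cells of a type and less RNA per cell cannot be told apart. The 10 neuron genes summed to 1012 to 1041 CPM in null and 1096 to 1146 CPM in wild type and were mostly Map2, at 967 to 999 CPM in null and 1058 to 1101 CPM in wild type. Among neuron markers Nefl, a neurofilament gene, was called higher in null by edgeR, at 2.82, 1.97 and 2.90 CPM in null, against 0.543, 0.725 and 0.893 CPM in wild type (log2 fold change 1.89 ± 0.28, edgeR adjusted p = 0.0228, and 0.137 with the sample-name term). It was the 1 called of the 9 tested, where 0.577% of all tested genes were called. Nefm (0.71 ± 0.17) and Gad1 (1.64 ± 0.40) also lay above wild type in every null library, without a call, as did 11.4% of all tested genes. Others went the other way. Of the 9 tested, 3 had a log2 fold change below 0, among them Rbfox3 (-0.93 ± 0.39), whose groups overlapped. Map2 lay below wild type in every null library, as did 10.6% of all tested genes. Microglia, vessel and fibroblast genes each summed to under 4 CPM in every library, at 1.97 to 2.48, 2.21 to 2.94 and 2.21 to 2.90 CPM in null, against 1.86 to 3.03, 2.40 to 3.67 and 1.05 to 2.98 CPM in wild type. By their mean over the 6 libraries the most abundant genes were P2ry12, Kdr and Col1a2, and 1 gene of the microglia list and 1 of the vessel list had 0 counts in all libraries.

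The rest of the pathway was examined through 124 genes in 5 lists, of which 109 were tested. edgeR called 0 of the 109, and 18 had an unadjusted p under 0.05, against 2642 of all 14207 genes. Limma-voom also called 0, and DESeq2 called 2 lower, where it called 1.42% of all genes lower. Of the 109, 24 were called higher and 23 lower by edgeR once wild type replicate 3 was left out, where 19.7% of all genes were called higher and 19.4% lower. The fit with the sample-name term called 1, Sox9, lower (0.767% of all genes). The median log2 fold change of the 109 was -0.01, against 0.00 over all tested genes.

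Among ligand genes Dhh was the expressed one. Dhh, best known as the ligand of testis and peripheral nerve, had 66.8, 72.6 and 76.0 CPM in null, against 69.1, 89.0 and 101.3 CPM in wild type. The groups overlapped, with a log2 fold change of -0.26 ± 0.13 (edgeR adjusted p = 0.308). In GENCODE M21 its exons share 1107 of 4399 bases with Gm49442 on the other strand and 546 with Rhebl1 on its own. Some of these counts may therefore belong to neighbours, though the exons that were counted may differ from those of GENCODE M21. Shh, the main ligand of the ventral brain, had 14, 5 and 7 counts in null, against 7, 3 and 6 in wild type, and Ihh had 1, 3 and 1 in null, against 7, 3 and 0 in wild type. Both were too scarce to be tested. Of the 7 tested genes for ligands and their release, with a median log2 fold change of 0.43, the smallest p values belonged to Disp2, a relative of the ligand-releasing Disp1 (0.90 ± 0.34, edgeR adjusted p = 0.240), and Scube3, a secreted protein of the Scube family (1.03 ± 0.42, edgeR adjusted p = 0.250). Disp2 had 24.7, 23.8 and 23.3 CPM in null, against 12.3, 7.16 and 20.7 CPM in wild type. It stood at 1.29 without wild type replicate 3, where it was called (edgeR adjusted p = 0.00122), as were 19.7% of all genes in that direction. With the sample-name term it stood at 0.21.

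**Figure D4:**
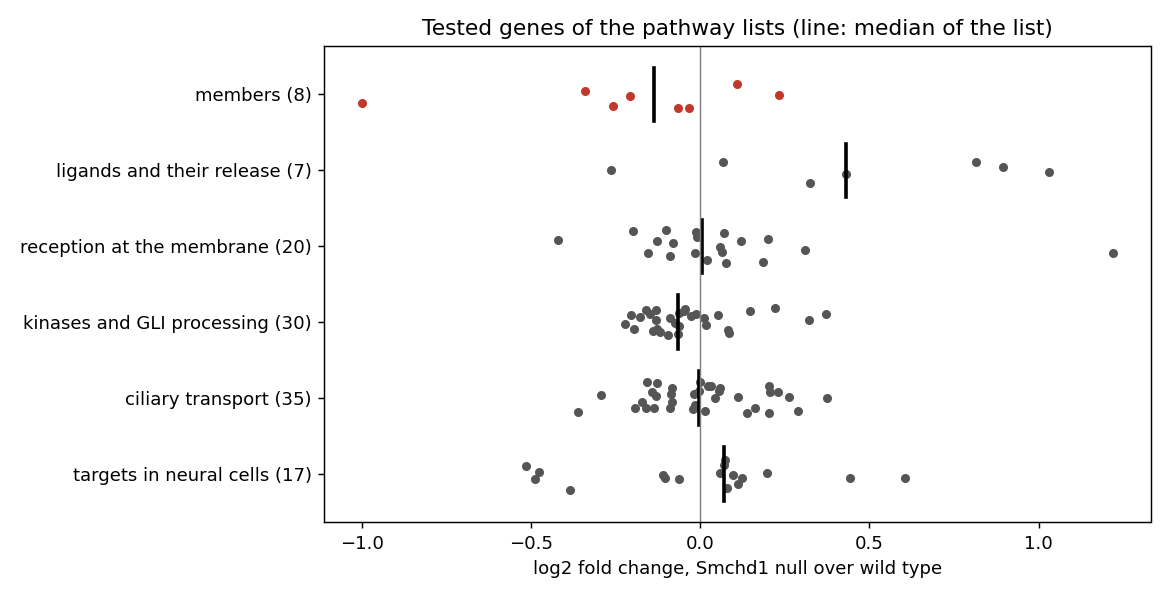
Log2 fold change (Smchd1 null over wild type, all 6 libraries) of each tested gene of the 9 members and of the 5 other pathway lists, 1 point per gene with a line at the median of the list. Medians lay at -0.14 for the members, 0.43 for the 7 ligand and release genes, 0.00 for reception, -0.06 for kinases and GLI processing, 0.00 for ciliary transport and 0.07 for targets, and no point passed the test.

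These medians moved with the fit. That of the members was -0.22 without wild type replicate 3 and 0.10 with the sample-name term, and that of the ligand and release genes was 0.56 and 0.06.

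Of 20 tested genes for reception at the membrane, 10 had a log2 fold change below 0, against 7064 of all 14207 tested genes. The smallest p value was that of Arrb1, a beta-arrestin (0.31 ± 0.09, edgeR adjusted p = 0.169). Gas1, another ligand co-receptor beside Boc and Cdon, was chosen after its values were seen. It had 28.4, 25.2 and 26.0 CPM in null, against 42.6, 37.6 and 25.0 CPM in wild type, with wild type replicate 3 lowest as for Cdon. Of 30 tested kinase and processing genes, 21 had a log2 fold change below 0. Their median was -0.06, and it was -0.11 without wild type replicate 3 and -0.01 with the sample-name term. The smallest p values were those of Prkar1a, a regulatory subunit of protein kinase A, which primes GLI proteins for cutting (-0.18 ± 0.06, edgeR adjusted p = 0.205), and Csnk1g2, a casein kinase (-0.15 ± 0.06, edgeR adjusted p = 0.256). Of 35 tested ciliary genes, 19 lay below 0. The smallest p values were those of Tulp3, an adaptor that brings receptors such as Gpr161 into the cilium (-0.29 ± 0.08, edgeR adjusted p = 0.159), and Arl13b, a ciliary GTPase (-0.36 ± 0.11, edgeR adjusted p = 0.173). Tulp3 stood at -0.32 without wild type replicate 3 and -0.23 with the sample-name term, and Arl13b at -0.46 and -0.10.

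Of 27 genes listed as targets in neural cells, 17 were tested. Tcf7l2, a Wnt effector gene, had 12.8, 12.2 and 11.8 CPM in null, against 19.0, 15.9 and 17.7 CPM in wild type. The groups did not overlap, and 10.6% of all tested genes were likewise lower in every null library. Wild type replicate 3 lay with its own group, with a log2 fold change of -0.52 ± 0.10 (edgeR adjusted p = 0.0877). Tcf7l2 stood at -0.52 without wild type replicate 3, where it was called (edgeR adjusted p = 0.00065), as were 19.4% of all genes in that direction. It stood at -0.53 with the sample-name term (edgeR adjusted p = 0.104). Hes1, a Notch effector that Hedgehog can also raise, had 31.2, 36.2 and 33.5 CPM in null, against 45.0, 48.0 and 38.2 CPM in wild type (-0.39 ± 0.10, edgeR adjusted p = 0.137). Without wild type replicate 3 Hes1 was called at -0.47 (edgeR adjusted p = 8.32e-05), as were 19.4% of all genes in that direction. With the sample-name term Hes1 stood at -0.18. The ventral genes Nkx2-9 and Foxa2 had 0 counts in all libraries.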

How the data were processed

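Per the file headers, each deposited table gives a raw count and a length for every Entrez gene. Per the labels' protocols, libraries were made from total RNA with the Illumina TruSeq RNA v2 kit, which does not mark strand, and read from a single end. The submitters' processing notes list mm10 as build and name featureCounts, CASAVA 1.8.2, limma 3.22.0 and edgeR 3.8.2. Neither aligner nor annotation is given in the sources used here. Symbols and coordinates came from a RefSeq table of GRCm38.p6, whose chromosomes are those of mm10, and 25275 IDs (93.0%) matched.

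The main test was the edgeR 4.0.16 quasi-likelihood F-test (two-sided, R 4.3.3) after filterByExpr (minimum count 10) and TMM scaling, with robust moderation, genotype as the sole term, and Benjamini-Hochberg adjustment over 14207 genes. The SE is the fold change divided by the root of F. Alternatives used DESeq2 1.42.0, limma-voom (limma 3.58.1), other scalings and filters, thinning, further terms, and leaving out each library. On simulated data for this comparison (14097 genes), the edgeR test recovered 84% of 100 genes changed by a log2 fold change of 1 and 95% of 100 changed by 2. Of its 191 calls there, 12 were false. The simulated libraries of a genotype shared 1 mean per gene, so none stood apart as wild type replicate 3 did. These shares therefore do not give the sensitivity in the real libraries, where Gli3 at -1.001 was not called. Within groups, libraries differed by more than sampling noise. The mean chi-square per gene, on total counts without TMM scaling, was 7.79 to 16.6 between null libraries and 8.77 between wild type replicates 1 and 2. Between wild type replicate 3 and wild type replicates 1 and 2 it was 1054 and 1018. The large record of wild type replicate 3 enters these last values. Intervals cover counting error only. Named genes were the 9 members, Smchd1, the 2 genes with the smallest p of each other pathway list with each ligand gene, the 3 genes nearest to Gli3, and the most abundant marker of each cell type by its mean over all libraries. Pdgfra, Mag, Mog, Nefl, Nefm, Gad1, Rbfox3, Aldh1l1, Gas1, Sox9, Nkx2-9 and Foxa2 fall outside that rule and were chosen after their values were seen. A gene that this rule takes from the reception list is not reported here. The members and lists were chosen with earlier results of these data known.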

Additional observations from a re-analysis of the deposited data

How the results depend on the processing

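No member passed under 17 of the 20 alternatives. Gli3 passed with DESeq2, and Gli3, Smo, Cdon, Boc and Ptch1 passed with limma-voom with sample quality weights and without wild type replicate 3. Members called lower in null numbered 1 with DESeq2, 4 with the quality weights, and 0 to 4 when 1 library was left out; members called higher numbered 1 with the quality weights and 0 to 1 when 1 library was left out. Other pathway genes called higher numbered 21 with quality weights, 3 with total count scaling and 0 to 24 when 1 library was left out. Those called lower numbered 2 with DESeq2, 21 with quality weights, 1 with no filter, 1 with the sample-name term, 3 among the libraries named 11 to 14, and 0 to 23 when 1 library was left out. Of all tested genes, 72 were called higher and 10 lower; DESeq2 gave 178 and 213, quality weights 2700 and 2468, total count scaling 454 and 3, no filter 163 and 59, and the libraries named 11 to 14 alone 126 and 250. Lower calls numbered 23 with limma-voom, 6 with the replicate block and 109 with the sample-name term. Leaving out 1 library gave 29 to 2857 higher and 1 to 2819 lower, the top values without wild type replicate 3. Direction turned, in each case without a call, for Gli2 (0.0073 with upper quartile scaling, 0.22 with total counts, 0.034 with the replicate block, 0.66 with the sample-name term and 0.66 among libraries 11 to 14, and -0.22 to 0.14 when 1 library was left out), Ptch1 (-0.10 with the sample-name term and -0.10 among libraries 11 to 14), Smo (0.052, 0.12 and 0.12 with total counts, the sample-name term and libraries 11 to 14), Sufu (0.25 with total counts), Boc (0.071 and 0.069) and Cdon (0.27 and 0.27) with the sample-name term and libraries 11 to 14. Total count scaling moved the median of all genes to a log2 fold change of 0.32. The causes of these changes were not tested. Same-numbered replicates did not deviate together (correlations of -0.01, 0.03 and -0.04), and not every library correlated best with its own number. No pairing by number was seen, but such values cannot tell whether same-numbered libraries were prepared together. The replicate block gave 48 higher and 6 lower. Leaving out the records above 1% of any library was chosen after seeing the data and changed no member's call. Gli1 and Gli2 rested on few counts, 4 to 12 and 21 to 104 per library.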
